A study of Homo sapiens with 9 samples.

Results

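The 38 genes described here encode keratins and the proteins of adherens junctions, tight junctions and desmosomes, with polarity proteins, epithelial regulators and surface or secretory proteins of epithelial cells. A gene entered through the probe sets of the HG-U133 Plus 2.0 array that the annotation assigns to that gene symbol alone, and the probe set brightest on average across the 9 arrays gave its value. By this rule 35 of the 38 genes were found, of 19775 genes named in this way on the array. KRT17, F11R and ESRP2 had no probe set naming them alone and were not analysed here. The 35 genes had 71 probe sets in all, and 23 of them had more than 1.

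Total RNA came from MDA-MB-231, a human line of triple-negative breast cancer cells with a mesenchymal-like phenotype. Cells were reverse transfected with Lipofectamine 2000 and Qmimic, Dmimic or the negative control AllStar, each at 10 nM, and each group had 3 biological replicates harvested after 48 h. All groups therefore shared the line, the reagent, the dose and the time, and each well was measured on 1 array. The title of the series mentions miR-34a, a microRNA, and AXL, a receptor tyrosine kinase. The labels give no meaning for the letters Q and D and no mimic sequence.

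Epithelial cells are held together by adherens junctions, in which cadherins bind across the gap between cells, by tight junctions, in which claudins and occludin seal it, and by desmosomes, which anchor the keratin filaments. Breast carcinoma lines of the mesenchymal-like kind have usually lost E-cadherin and express vimentin, while many of them keep simple-epithelial keratins. ZEB and SNAIL factors repress many junction genes by binding an E-box spelled CACCTG, which reads CAGGTG on the other strand. MDA-MB-231 is known for high ZEB1 and for silenced CDH1.

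The miR-34a sequence is shown because the series title names that microRNA, with its seed (bases 2 to 8) in capitals. Upstream sequences are shown for AGR2 and DSC2, the members in the promoter table whose values differed most between the mimics, and for CLDN7 and CRB3, which held more E-boxes than any other member there. Each gives the 250 bases before a transcription start 5′ to 3′ on the strand of the gene, and capitals mark CACCTG or CAGGTG. All are from RefSeq on GRCh38.p14. The positions are chr1:9151735-9151756 (minus strand) for miR-34a, chr7:16805000-16805249 (minus) for AGR2, chr18:31102422-31102671 (minus) for DSC2, chr17:7262479-7262728 (minus) for CLDN7 and chr19:6464021-6464270 (plus) for CRB3.
hsa-miR-34a-5p: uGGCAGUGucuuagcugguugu
AGR2: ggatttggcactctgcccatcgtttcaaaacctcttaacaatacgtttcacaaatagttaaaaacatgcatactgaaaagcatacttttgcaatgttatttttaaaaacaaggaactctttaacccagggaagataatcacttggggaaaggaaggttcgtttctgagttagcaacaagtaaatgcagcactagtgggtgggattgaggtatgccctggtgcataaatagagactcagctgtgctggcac
DSC2: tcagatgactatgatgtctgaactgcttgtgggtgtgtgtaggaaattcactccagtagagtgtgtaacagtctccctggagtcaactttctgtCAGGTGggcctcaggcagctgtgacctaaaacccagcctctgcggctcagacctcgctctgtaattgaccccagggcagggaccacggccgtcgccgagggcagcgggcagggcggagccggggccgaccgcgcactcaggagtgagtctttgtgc
CLDN7: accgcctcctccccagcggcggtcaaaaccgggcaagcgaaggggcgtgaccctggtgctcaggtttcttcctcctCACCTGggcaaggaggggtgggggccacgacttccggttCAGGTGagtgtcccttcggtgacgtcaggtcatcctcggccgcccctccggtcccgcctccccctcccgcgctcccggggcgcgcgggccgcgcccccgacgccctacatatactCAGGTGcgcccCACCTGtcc
CRB3: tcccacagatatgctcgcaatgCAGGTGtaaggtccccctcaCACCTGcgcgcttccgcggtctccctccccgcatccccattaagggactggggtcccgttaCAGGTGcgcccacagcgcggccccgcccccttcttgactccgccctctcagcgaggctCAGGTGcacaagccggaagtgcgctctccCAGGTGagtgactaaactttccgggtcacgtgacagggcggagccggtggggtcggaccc

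The promoter table held 21 of the 38 genes with 32 windows, each of 300 bases from 250 before to 50 after a start. CACCTG or CAGGTG occurred in 18 of these windows (56.2%) and in 16 of the 21 genes (76.2%). Over the whole table it occurred in 7231 of 35116 windows (20.6%) and in 6571 of 27305 genes (24.1%). The CLDN7 window above held 4 matches before the start and 1 after it, CRB3 held 5 before it, and the match of AGR2 lay 45 bases after its start, past the bases shown. A match says only that these letters are present, and no binding was measured.

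The array values are log2 signals, made by the authors with RMA, and 1 unit is a doubling of signal. AllStar replicate 3 stood apart: its correlation with the other 8 arrays was 0.974 to 0.981, against 0.993 to 0.998 among those 8, and its interquartile range was 2.999, against 3.41 to 3.53. Its probe sets for 18S ribosomal RNA averaged 8.73, against 5.27 to 6.26 on the others. The 3′ minus 5′ signal of GAPDH, a sign of RNA degradation, was 0.26, against 0.13 to 0.25. That of ACTB was 0.36, inside the range of the others (0.23 to 0.42). Results are therefore given for all 9 arrays and for the 8 arrays without AllStar replicate 3. The number of arrays limits the precision, and p-values set each difference against the spread between these replicates, shared over the groups. In bulk RNA, fewer cells expressing a gene and less RNA per cell cannot be told apart.

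As a check of the cell line, VIM, which encodes vimentin, lay between 13.53 and 13.71 on all 9 arrays, and the repressor ZEB1 between 9.60 and 10.10. CDH1, which encodes E-cadherin, was the only one of the 35 genes below the lower quartile of every array (4.01 to 4.21), with signals of 3.44 to 4.02. Against that, 24 of the 35 lay above the median of every array (5.44 to 5.60), among them KRT7, KRT8, KRT18 and KRT19 and the desmosome genes DSP and DSG2. FN1, CD44, MSN and AXL were also bright, at 11.28 or more on all 9 arrays, but the mesenchymal gene SPARC lay at 3.44 to 4.19. Of the receptors that should be low in a triple-negative line, PGR lay at 3.64 to 4.72. ESR1 (6.74 to 7.45) and ERBB2 (8.11 to 8.78) lay above the median of every array. The line thus had the vimentin, ZEB1 and E-cadherin pattern named above together with keratin signal, while SPARC, ESR1 and ERBB2 went the other way. Each gene was read here on its brightest probe set only. A signal above the array median does not by itself show that ESR1 or ERBB2 was expressed.

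With all 9 arrays, 0 of the 35 genes passed both thresholds used throughout, a Benjamini-Hochberg adjusted p under 0.05 from limma over 54613 probe sets and a change of at least 1.5-fold, in any comparison. Of all probe sets tested, 0% passed for Qmimic against AllStar, 0.00549% for Dmimic against AllStar, 0.0806% for both mimics together against AllStar and 0% for Qmimic against Dmimic. At an unadjusted p under 0.05, 6 genes were higher and 0 lower with Qmimic (6 of 35 is 17.1%, against 16.3% of all probe sets in either direction). With Dmimic 9 were higher and 1 lower (28.6%, against 12.8%), and over both mimics 10 were higher and 0 lower (28.6%, against 19.2%). For Qmimic against Dmimic the counts were 3 higher and 0 lower (8.57%, against 2.41%). The shares of all probe sets join both directions. These counts therefore cannot say whether the lean to higher values was particular to the members.

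Without AllStar replicate 3, PLEKHA7 rose and AGR2 fell, and no other member passed both thresholds. PLEKHA7 alone passed for Qmimic (1 of 35, where 0.540% of all probe sets passed) and for both mimics together (1 of 35, against 0.721%). PLEKHA7 and AGR2 passed for Dmimic (2 of 35, against 0.864%), and AGR2 passed for Qmimic against Dmimic (1 of 35, against 0.0806%). By adjusted p alone, whatever the fold, 3 genes passed for Qmimic (8.57%, against 1.75%), with DSC2 and PARD6B added, 2 for Dmimic (5.71%, against 2.31%), 2 for both, with PARD6B added (5.71%, against 3.02%), and 1 between the mimics (2.86%, against 0.214%). At an unadjusted p under 0.05, 5 genes were higher and 1 lower with Qmimic (17.1%, against 18.2% of all probe sets in either direction). With Dmimic 9 were higher and 3 lower (34.3%, against 17.1%). Over both mimics 8 were higher and 4 lower (34.3%, against 19.1%), the 4 being MARVELD2, EPCAM, CD24 and AGR2. Between the mimics 7 were higher with Qmimic and 1 lower (22.9%, against 11.1%). The comparisons of the mimics with AllStar share the AllStar arrays, and the fits of 9 and 8 arrays share 8 arrays, so none is a separate test of another. Over 9 arrays the median change of the 35 genes was 0.14 with Qmimic and 0.04 with Dmimic, where all probe sets had -0.03 and -0.03. Over 8 arrays it was 0.04 and 0.02, where all had -0.01 and -4e-04. Each member was read on its brightest probe set, whereas the shares and medians of all probe sets include dim ones. In the upper part of the probe sets by mean, the medians were 0.08 with Qmimic and 0.06 with Dmimic over 9 arrays. Over 8 arrays they were 0.0085 and 0.008.

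Counted by separation of the arrays, 12 genes were higher on all 3 Qmimic arrays than on all 3 AllStar arrays (34.3% of the 35, against 14.1% of all probe sets) and 1, CLDN3, was lower (2.86%, against 10.8%). For Dmimic 9 genes were higher (25.7%, against 11.9%) and 0 lower (0%, against 7.04%). Without AllStar replicate 3 the counts for Qmimic were 12 higher (34.3%, against 17.9%) and 4 lower (11.4%, against 20%), the 4 being CLDN3, MARVELD2, EPCAM and CD24. For Dmimic they were then 10 higher (28.6%, against 17%) and 5 lower (14.3%, against 16.5%), the 5 being MARVELD2, DSG2, PKP2, EPCAM and AGR2. On all 6 mimic arrays 9 genes lay above all 3 AllStar arrays (25.7%, against 8.33%) and 0 below (0%, against 3.83%). These 9 were the keratins KRT7, KRT8, KRT18 and KRT19, the junction genes PLEKHA7, CLDN1, CLDN7 and TJP1, and the polarity gene PARD6B. AllStar replicate 3 was the lowest of the 9 arrays for all of these but CLDN1. Set against AllStar replicates 1 and 2 alone the same 9 were counted (25.7%, against 10.4%), while MARVELD2 and EPCAM then lay below (5.71%, against 10.1%). As above, the shares of all probe sets include dim ones, so they are not shares at the signal level of the members.

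**Figure D1:**
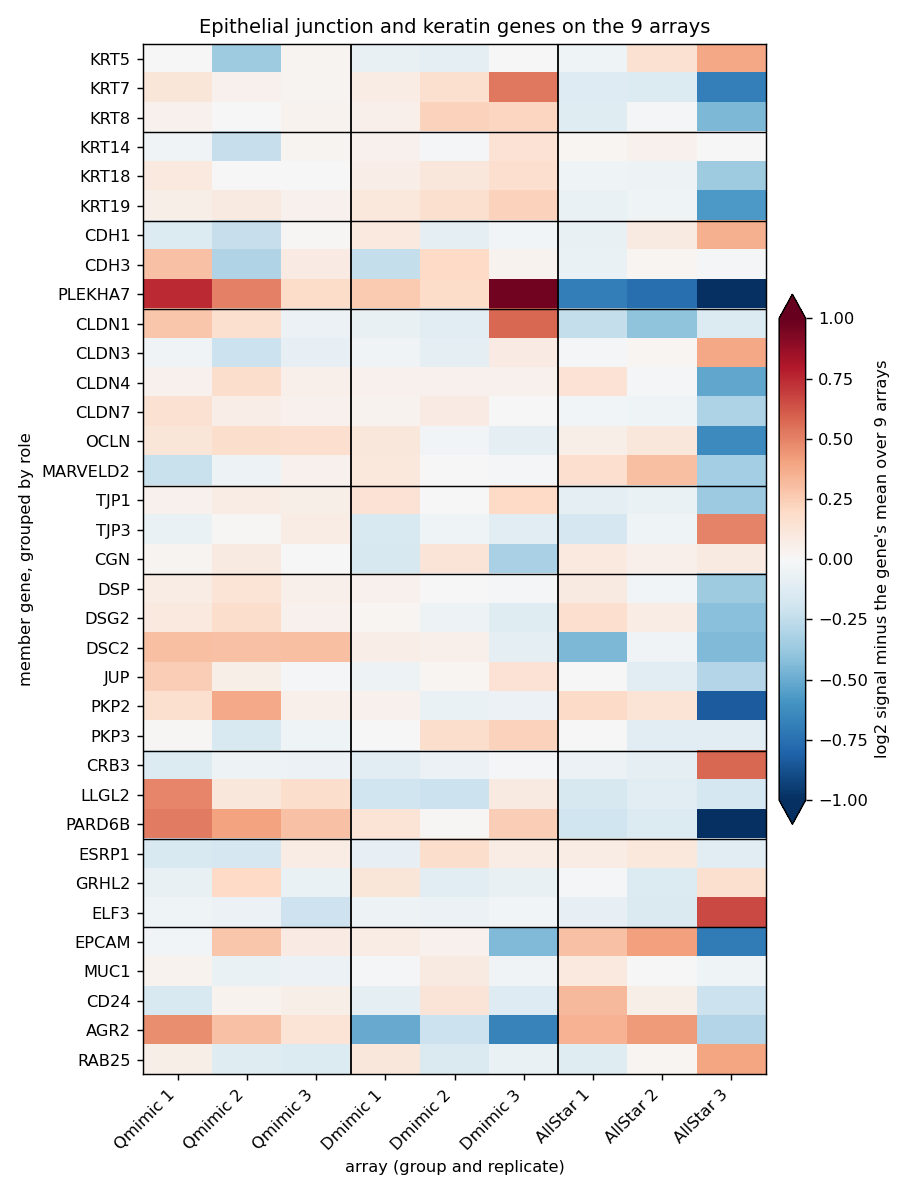
Heat map of the 35 genes (rows, grouped by role) on the 9 arrays (columns: Qmimic, Dmimic, AllStar), coloured by log2 signal minus the gene's mean over the 9 arrays. PLEKHA7 is red on all 6 mimic arrays and blue on all 3 AllStar arrays, and AllStar replicate 3 is the lowest array of 17 genes and the highest of 7.

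On the brightest probe sets of the simple-epithelial keratins KRT7, KRT8, KRT18 and KRT19 every mimic array lay above every AllStar array, with differences under 1.5-fold, and none passed the adjustment. The dimmer probe sets of KRT7 and KRT19 did not show this. Keratins form filaments from a type II and a type I partner, KRT8 with KRT18 in simple epithelia. KRT7, a type II keratin of ducts, was 10.30, 10.22 and 10.20 with Qmimic, 10.26, 10.34 and 10.71 with Dmimic and 10.05, 10.04 and 9.50 with AllStar. KRT8 was 10.71, 10.68 and 10.70 with Qmimic, 10.72, 10.90 and 10.89 with Dmimic and 10.55, 10.66 and 10.22 with AllStar. In both genes AllStar replicate 3 was the low value of its group, and for KRT8 AllStar replicate 2 lay just below the lowest mimic array.

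The type I keratins had the same layout. KRT18 was 12.64, 12.55 and 12.55 with Qmimic, 12.61, 12.66 and 12.72 with Dmimic and 12.50, 12.50 and 12.19 with AllStar. KRT19, which lacks most of the tail of other keratins, was 12.19, 12.22 and 12.17 with Qmimic, 12.23, 12.29 and 12.36 with Dmimic and 12.06, 12.09 and 11.56 with AllStar. No mimic array overlapped an AllStar array in either gene, and the 3 Dmimic arrays of KRT19 lay above the 3 Qmimic arrays.

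Over all 9 arrays the log2 change of KRT7 was 0.38 with Qmimic (SE 0.16, limma adjusted p = 0.296) and 0.57 with Dmimic (SE 0.16, adjusted p = 0.214). The changes of KRT8, KRT18 and KRT19 were 0.22, 0.19 and 0.29 with Qmimic and 0.36, 0.27 and 0.39 with Dmimic, at adjusted p of 0.262 to 0.358. Without AllStar replicate 3 the change of KRT7 was 0.20 with Qmimic (limma adjusted p = 0.406) and 0.39 with Dmimic (adjusted p = 0.112). KRT19 then had values of 0.12 with Qmimic and 0.22 with Dmimic. For KRT8 the values without that array were 0.09 and 0.23, and for KRT18 0.08 and 0.16.

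Other scalings of the 9 arrays left all 4 keratin values above 0 but moved their size. Centring each array on its median gave larger values, 0.45, 0.29, 0.25 and 0.36 for KRT7, KRT8, KRT18 and KRT19 with Qmimic. For Dmimic it gave 0.62, 0.41, 0.32 and 0.44. The scalings that follow gave smaller ones. With Qmimic the values of KRT7, KRT8, KRT18 and KRT19 were 0.24, 0.10, 0.12 and 0.21 after repeated quantile normalisation, and 0.22, 0.06, 0.08 and 0.17 after cyclic loess. With Dmimic they were 0.44, 0.24, 0.18 and 0.30 after quantile normalisation and 0.41, 0.21, 0.15 and 0.27 after cyclic loess. The dimmer probe sets gave other values: the 3 of KRT7 had differences over 9 arrays of -0.33, -0.22 and -0.08 with Qmimic and -0.13, -0.19 and -0.01 with Dmimic, and that of KRT19 had -0.61 and -0.50. Without AllStar replicate 3, which was the highest array of each of them, these were -0.14, 0.02 and 0.00 with Qmimic and 0.06, 0.05 and 0.07 with Dmimic for KRT7, and -0.13 and -0.01 for KRT19, none with an unadjusted limma p under 0.05. The basal keratins KRT5 and KRT14, which pair in stratified epithelium, were dim (4.80 to 5.54 and 3.96 to 4.33), and their arrays overlapped between groups.

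PLEKHA7 had the largest difference from AllStar of the 35 genes with either mimic. The protein is an adaptor of the adherens junction that binds p120-catenin and links cadherin complexes to microtubules. Its signal was 8.30, 8.07 and 7.74 with Qmimic, 7.82, 7.75 and 8.53 with Dmimic and 6.87, 6.81 and 6.15 with AllStar. Each mimic array was higher than each AllStar array, and the mimic groups overlapped. The means were 8.04 ± 0.28 with Qmimic, 8.03 ± 0.43 with Dmimic and 6.61 ± 0.40 with AllStar (SD, n = 3 each).

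Over 9 arrays PLEKHA7 was 2.69-fold higher with Qmimic (log2 change 1.43, SE 0.25, limma adjusted p = 0.122), 2.68-fold higher with Dmimic (1.42, SE 0.25, adjusted p = 0.0893) and 2.68-fold higher over both (1.42, SE 0.21, adjusted p = 0.052), which did not pass. Without AllStar replicate 3 it rose 2.30-fold with Qmimic (1.20, SE 0.22, limma adjusted p = 0.0283), 2.28-fold with Dmimic (1.19, SE 0.22, adjusted p = 0.0265) and 2.29-fold over both (1.20, SE 0.19, adjusted p = 0.0162). The mimics differed by 0.01, with a 95% interval of -0.54 to 0.56 over 9 arrays. A second PLEKHA7 probe set was 7.50, 7.44 and 7.24 with Qmimic, 7.19, 7.14 and 7.54 with Dmimic and 6.80, 6.68 and 6.42 with AllStar, again without overlap between mimic and AllStar arrays. In the 8-array fit its changes were 0.66 with Qmimic (limma adjusted p = 0.0319) and 0.55 with Dmimic (adjusted p = 0.0467, under 1.5-fold).

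The calls of PLEKHA7 rested on both remaining controls. With AllStar replicate 1 left out as well, its change was 1.23 with Qmimic (limma adjusted p = 0.171) and 1.22 with Dmimic (adjusted p = 0.198), and with AllStar replicate 2 left out instead it was 1.17 and 1.16 (adjusted p = 0.229 and adjusted p = 0.2). Without Qmimic replicate 1 or 2 the Qmimic change was 1.07 or 1.18 (limma adjusted p = 0.103 and adjusted p = 0.114), and without Qmimic replicate 2 the Dmimic call was lost as well (1.19, adjusted p = 0.06).

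The cadherins CDH1 and CDH3 did not pass in any comparison, and their arrays overlapped between the mimics and AllStar. CDH1 lay at 3.44 to 3.68 with Qmimic, 3.57 to 3.76 with Dmimic and 3.59 to 4.02 with AllStar, where the top value was AllStar replicate 3. CDH3, which encodes P-cadherin of basal cells, lay at 5.18 to 5.78 with Qmimic, 5.24 to 5.68 with Dmimic and 5.42 to 5.51 with AllStar, and its AllStar arrays lay inside both mimic ranges.

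Among the membrane proteins of tight junctions 0 of 6 passed in any fit. CLDN7, a claudin of many epithelia, was 9.52, 9.43 and 9.41 with Qmimic, 9.40, 9.44 and 9.37 with Dmimic and 9.34, 9.32 and 9.06 with AllStar. OCLN, which encodes occludin, was 8.69, 8.75 and 8.74 with Qmimic, 8.68, 8.54 and 8.48 with Dmimic and 8.63, 8.69 and 7.93 with AllStar. CLDN7 separated all mimic arrays from all AllStar arrays by a gap smaller than its spread within a group, while the Dmimic and AllStar arrays of OCLN overlapped. CLDN1, which seals the tight junctions of skin and ducts, ranged from 4.99 to 5.32 with Qmimic, 4.93 to 5.62 with Dmimic and 4.64 to 4.90 with AllStar. Its change was 0.39 with either mimic over 9 arrays (limma adjusted p = 0.309 and adjusted p = 0.391) and 0.45 over 8 (adjusted p = 0.227 and adjusted p = 0.231). A dimmer CLDN1 probe set, with a mean of 3.62, had a Qmimic change of -0.07 over 9 arrays (limma adjusted p = 0.712).

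MARVELD2, which encodes tricellulin of the sites where 3 cells meet, had differences below 0, larger without AllStar replicate 3. It lay at 6.37 to 6.64 with Qmimic and 6.59 to 6.71 with Dmimic, against 6.76 and 6.90 on AllStar replicates 1 and 2 and 6.26 on AllStar replicate 3. Its change over 8 arrays was -0.31 with Qmimic (limma adjusted p = 0.106) and -0.20 with Dmimic (adjusted p = 0.292), against -0.12 and -0.01 over 9. CLDN3 lay at 6.30 to 6.48 with Qmimic, 6.42 to 6.60 with Dmimic and 6.50 to 6.90 with AllStar, and CLDN4 at 7.37 to 7.50 with Qmimic, at 7.37 on all 3 Dmimic arrays and at 6.81 to 7.47 with AllStar.

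Of the tight junction scaffolds, TJP1, which encodes ZO-1 and ties the strands to actin, was 10.49, 10.53 and 10.51 with Qmimic, 10.60, 10.46 and 10.65 with Dmimic and 10.36, 10.39 and 10.09 with AllStar. Mimic and AllStar arrays of TJP1 did not overlap, and AllStar replicate 3 was the lowest. Its change was 0.23 with Qmimic (limma adjusted p = 0.298) and 0.29 with Dmimic (adjusted p = 0.291), with values of 0.14 and 0.20 without AllStar replicate 3. TJP3, which encodes ZO-3, and CGN, which encodes cingulin, overlapped between the groups, and AllStar replicate 3 was the highest array of TJP3 at 5.81, against 5.15 to 5.39 on the others.

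In the desmosome group 0 of 6 passed both thresholds, and DSC2 had the largest difference. DSC2 encodes desmocollin-2, a desmosomal cadherin. Its signal was 6.996 to 7.004 on the 3 Qmimic arrays, 6.77, 6.76 and 6.61 with Dmimic and 6.25, 6.67 and 6.26 with AllStar. The Qmimic arrays lay above all others, and Dmimic replicate 3 lay below AllStar replicate 2. The change with Qmimic was 0.61 over 9 arrays (SE 0.12, limma adjusted p = 0.139) and 0.54 over 8 (SE 0.11, adjusted p = 0.0402), a size of 1.45-fold. With Dmimic it was 0.32 over 9 (adjusted p = 0.309) and 0.25 over 8 (adjusted p = 0.259).

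The other DSC2 probe sets were dimmer and gave unlike values. One, at 5.14, 5.20 and 5.01 with Qmimic, 4.96, 4.80 and 4.71 with Dmimic and 4.59, 4.65 and 4.45 with AllStar, had no overlap between any 2 groups. Its Qmimic change over 8 arrays was 0.50 (limma adjusted p = 0.0278, under 1.5-fold). The remaining ones lay near 4, with changes of 0.15 and -0.07 there.

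DSP, which encodes desmoplakin, the link to keratin filaments, was 10.53, 10.59 and 10.50 with Qmimic, 10.50, 10.46 and 10.43 with Dmimic and 10.55, 10.43 and 10.10 with AllStar. DSG2, the desmosomal cadherin desmoglein-2, was 10.58, 10.65 and 10.52 with Qmimic, 10.49, 10.43 and 10.35 with Dmimic and 10.64, 10.55 and 10.06 with AllStar. Both genes had every Qmimic array above every Dmimic array, the gap being narrow for DSP. AllStar replicates 1 and 2 lay among the Qmimic arrays for DSG2, while for DSP replicate 1 lay among the Qmimic arrays and replicate 2 just below the lowest Dmimic array. PKP2, which encodes plakophilin-2 of the desmosomal plaque, was 7.79, 8.01 and 7.69 with Qmimic, 7.68, 7.57 and 7.57 with Dmimic and 7.82, 7.77 and 6.80 with AllStar. AllStar replicate 3 of PKP2 lay 0.99 below the mean of its fellow controls (a difference of -0.99), and without it the change was 0.04 with Qmimic and -0.19 with Dmimic (limma adjusted p = 0.88 and adjusted p = 0.34). A dimmer PKP2 probe set had a Qmimic change of -0.15 over 9 arrays (limma adjusted p = 0.392).

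JUP, which encodes plakoglobin, shared by desmosomes and adherens junctions, was 8.16, 7.97 and 7.90 with Qmimic, 7.86, 7.93 and 8.06 with Dmimic and 7.91, 7.81 and 7.62 with AllStar, and its groups overlapped. PKP3 lay at 7.31 to 7.47 with Qmimic, 7.46 to 7.69 with Dmimic and 7.34 to 7.46 with AllStar. Its change with Dmimic was 0.21 over 9 arrays and 0.19 over 8 (limma adjusted p = 0.387 and adjusted p = 0.297).

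Among the polarity genes, PARD6B and LLGL2 were highest with Qmimic, and neither passed both thresholds. PARD6B encodes a partner of atypical protein kinase C in the PAR complex at the apical side. Its signal was 7.10, 6.98 and 6.87 with Qmimic, 6.72, 6.59 and 6.82 with Dmimic and 6.38, 6.44 and 5.30 with AllStar. The 3 groups did not overlap, and AllStar replicate 3 differed from the mean of the other AllStar arrays by -1.11.

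Over 9 arrays the PARD6B change was 0.94 with Qmimic (SE 0.25, limma adjusted p = 0.193) and 0.67 with Dmimic (SE 0.25, adjusted p = 0.318). Without AllStar replicate 3 it was 0.57 with Qmimic (SE 0.09, adjusted p = 0.0172), at 1.49-fold just under the fold threshold, and 0.30 with Dmimic (SE 0.09, adjusted p = 0.11). Its other 2 probe sets lay at 3.32 to 4.15, with Qmimic changes of -0.09 and -0.03 over 8 arrays.

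LLGL2, a basolateral polarity protein of the lethal giant larvae family, lay at 6.19 to 6.57 with Qmimic, 5.87 to 6.17 with Dmimic and 5.91 to 5.96 with AllStar. Its Qmimic change was 0.41 over 9 arrays and 0.40 over 8 (limma adjusted p = 0.216 and adjusted p = 0.124), so AllStar replicate 3 made little difference to it. A dimmer LLGL2 probe set, with a mean of 4.63, had a Qmimic change of -0.12 over 9 arrays (limma adjusted p = 0.574). CRB3, an apical transmembrane protein, lay at 6.49 to 6.62 on all arrays but AllStar replicate 3, where it was 7.20.

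Of the 3 regulators measured, 0 passed in any comparison by limma, and 0 had an unadjusted p under 0.05. ESRP1, a splicing factor of epithelial isoforms, lay at 4.59 to 4.83 with Qmimic, 4.67 to 4.93 with Dmimic and 4.65 to 4.86 with AllStar. GRHL2, a transcription factor of junction genes, lay at 4.10 to 4.37 with Qmimic, 4.05 to 4.29 with Dmimic and 4.03 to 4.32 with AllStar. Both were below the median of every array and overlapped between all groups. ELF3, an ETS factor of epithelia, lay at 6.38 to 6.56 on 8 arrays and at 7.25 on AllStar replicate 3.

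AGR2 was the only member that passed both thresholds between the mimics, and only without AllStar replicate 3. It encodes a protein disulfide isomerase of the endoplasmic reticulum that secretory epithelia use to make mucin, and that many breast cancers express. Its signal was 7.36, 7.19 and 7.04 with Qmimic, 6.39, 6.68 and 6.23 with Dmimic and 7.24, 7.32 and 6.61 with AllStar. The Dmimic arrays lay below all Qmimic arrays and below AllStar replicates 1 and 2, while AllStar replicate 3 lay inside the Dmimic range.

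With Dmimic the AGR2 change was -0.62 over 9 arrays (SE 0.19, limma adjusted p = 0.241), and it fell by 0.85 on the log2 scale, or 1.80-fold, over 8 arrays (SE 0.13, limma adjusted p = 0.0159). With Qmimic the change was 0.14 over 9 arrays and -0.08 over 8 (adjusted p = 0.673 and adjusted p = 0.782). Qmimic minus Dmimic was 0.76, or 1.69-fold, with a 95% interval of 0.34 to 1.18 and a limma adjusted p = 1 over 9 arrays, and of 0.51 to 1.02 and adjusted p = 0.0359 over 8, where the spread was estimated without AllStar replicate 3. The Dmimic call was lost without AllStar replicate 1 as well (-0.88, adjusted p = 0.178) or AllStar replicate 2 (-0.81, adjusted p = 0.166). The call between the mimics was lost with any further array left out except Dmimic replicate 2 (adjusted p of 0.0633 to 0.168).

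A second AGR2 probe set lay at 3.87 to 4.002 with Qmimic, 3.87 to 3.93 with Dmimic and 3.84 to 4.47 with AllStar, near or under the lower quartile of the arrays, and differed by 0.03 between the mimics. The mean of both probe sets gave a Dmimic change of -0.46 (limma adjusted p = 0.03) over 8 arrays, under 1.5-fold.

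EPCAM, the epithelial cell adhesion molecule, was 7.93, 8.23 and 8.04 with Qmimic, 8.02, 7.999 and 7.52 with Dmimic and 8.24, 8.36 and 7.25 with AllStar. All 6 mimic arrays lay between AllStar replicate 3 and the other AllStar arrays. Its change was 0.11 with Qmimic and -0.11 with Dmimic over 9 arrays and -0.24 and -0.46 over 8 (limma adjusted p = 0.423 and adjusted p = 0.133), so the sign with Qmimic turned on that array, and repeated quantile normalisation (-0.02) and cyclic loess (-0.04) of the 9 arrays turned it too. MUC1, CD24 and RAB25, a mucin, a surface glycoprotein and a small GTPase of apical recycling, had changes of -0.17 to -0.01 with either mimic over 9 arrays, and RAB25 was highest on AllStar replicate 3 at 4.84.

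**Figure D2:**
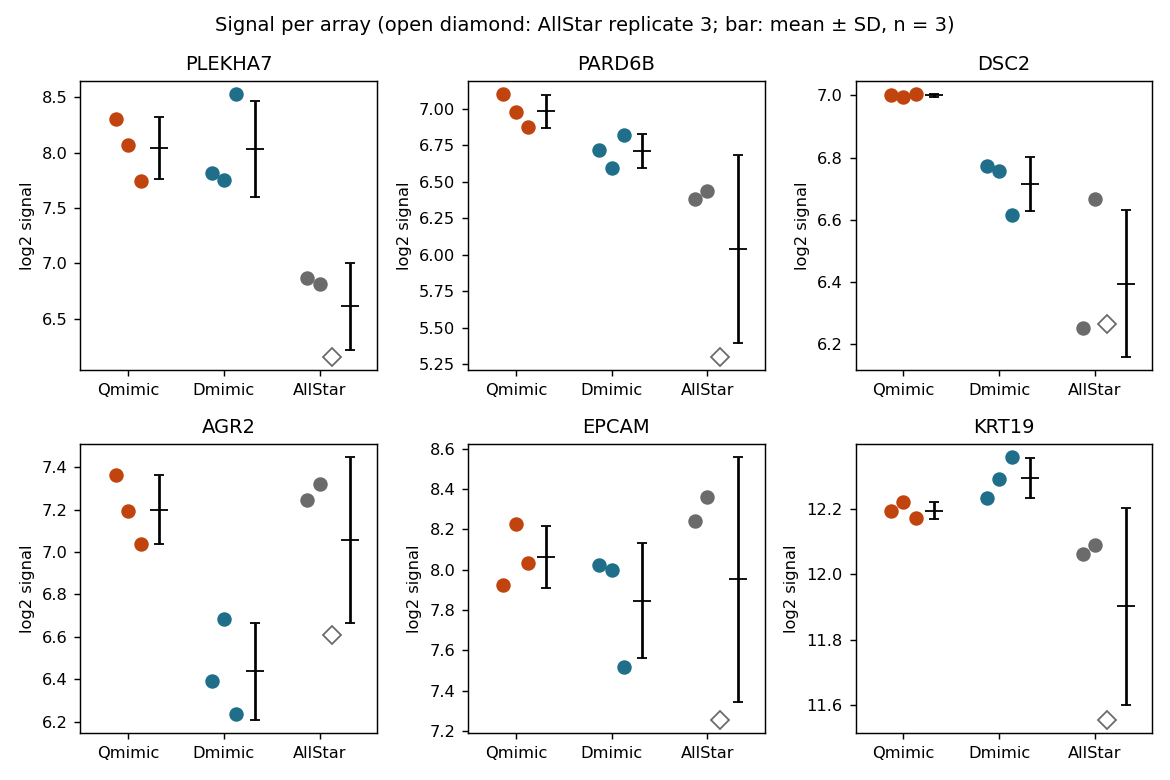
Log2 signal per array of 6 genes, with points for the 3 arrays of Qmimic, Dmimic and AllStar and a bar for the mean and SD of each group (n = 3). AllStar replicate 3, the open diamond, is the lowest array for PLEKHA7, PARD6B, EPCAM and KRT19, and the Dmimic arrays of AGR2 (6.23 to 6.68) lie below the Qmimic arrays (7.04 to 7.36).

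Set directly against each other, Qmimic and Dmimic differed in AGR2, as given above, and in no other member by the thresholds. On all 3 arrays 8 genes were higher with Qmimic than with Dmimic (22.9%, against 7.11% of all probe sets): OCLN, DSP, DSG2, DSC2, PKP2, LLGL2, PARD6B and AGR2. Only KRT8 and KRT19 were lower (5.71%, against 8.95%). The desmosome gave 4 of the 8. These comparisons do not use the AllStar values, which enter them only through the estimate of the spread. Apart from AGR2, the differences of the 8 were 0.08 to 0.36, at a limma adjusted p of 1 over 9 arrays and of 0.257 to 0.657 over 8. That of LLGL2 was 0.36 (SE 0.11 over 8 arrays, adjusted p = 0.266), of DSC2 0.29 (SE 0.10, adjusted p = 0.317) and of DSG2 0.16 (SE 0.07, adjusted p = 0.415).

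**Figure D3:**
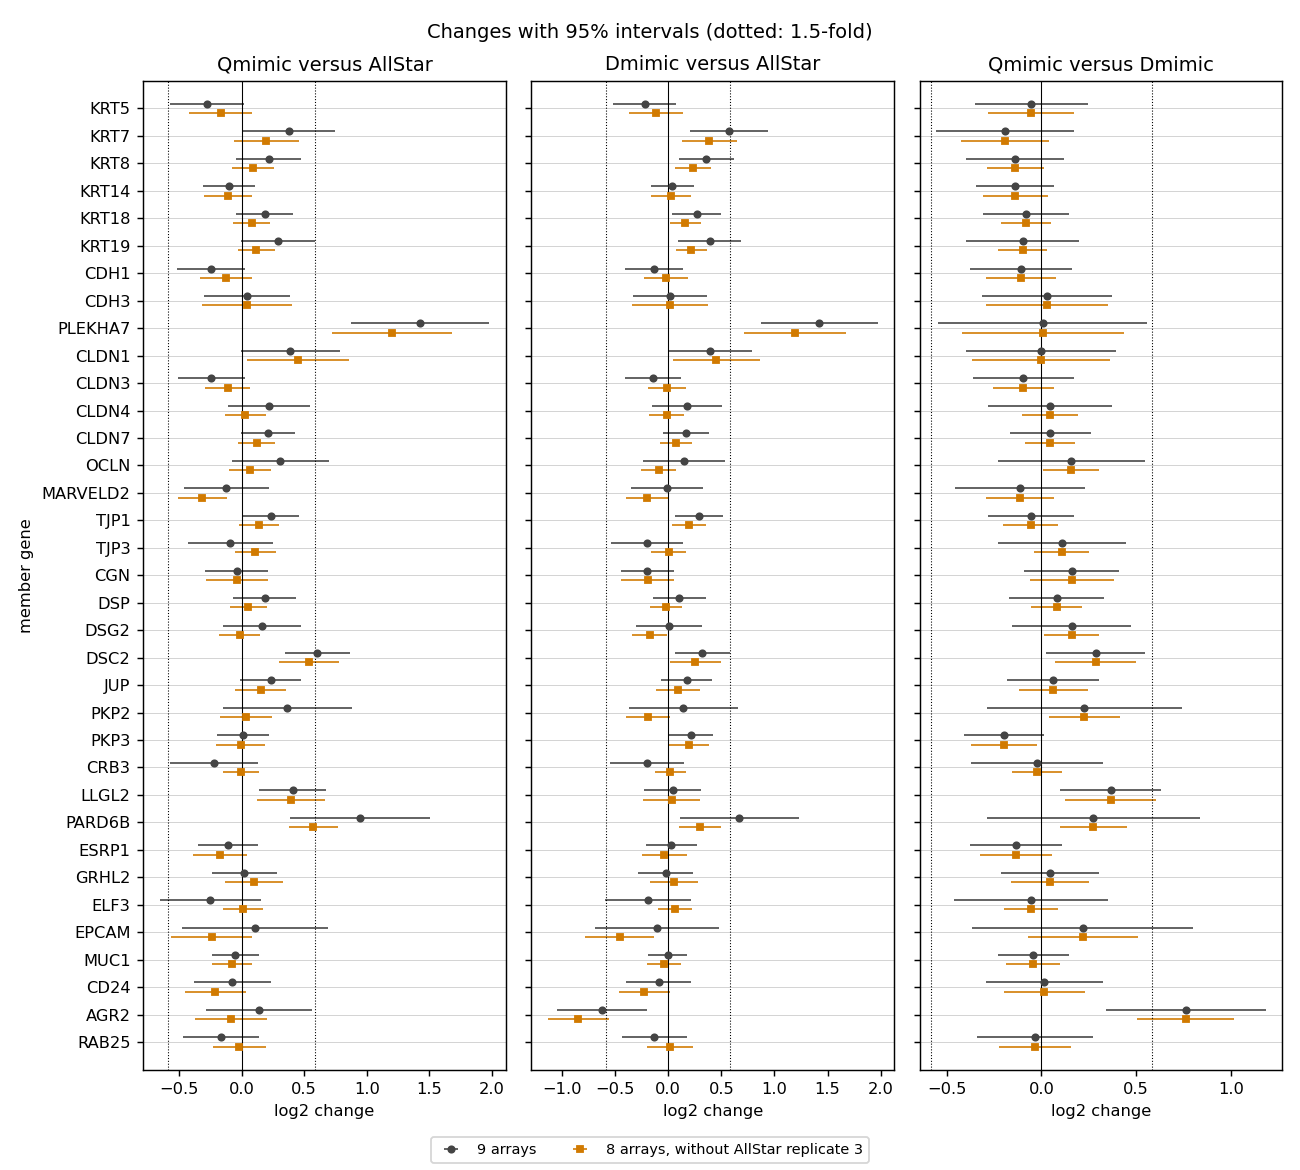
Log2 changes of the 35 genes in 3 comparisons, with 95% intervals from limma, over 9 arrays (circles) and over the 8 arrays without AllStar replicate 3 (squares); dotted lines mark 1.5-fold. PLEKHA7 lies near 1.4 and 1.2 with either mimic, AGR2 at -0.62 and -0.85 with Dmimic and at 0.76 between the mimics, and most intervals of the other genes cross 0.

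The place of AllStar replicate 3 went with the signal level. It was the lowest of the 9 arrays in 17 of the 35 genes (48.6%, against 33.9% of all probe sets) and the highest in 7 (20%, against 37.4%). Of the 7 members with a mean over 10, all 7 had AllStar replicate 3 lowest, where 80.8% of all probe sets at that level did, and their median difference from AllStar replicates 1 and 2 was -0.39, against -0.32 for all. At a level of 4 to 6 it was lowest in 0 of 9 and highest in 3 of 9, with a median of 0.19, against 0.21 for all. PARD6B (-1.11), EPCAM (-1.05) and PKP2 (-0.99) lay farthest below, and ELF3 (0.77) and CRB3 (0.65) farthest above. Repeated quantile normalisation and cyclic loess of the 9 arrays, like leaving the array out, gave smaller differences for bright members. With Qmimic TJP1 was then 0.10 and 0.08, against 0.14 without the array, and CLDN7 0.06 and 0.04, against 0.12. PLEKHA7 stayed at 1.39 and 1.29, against 1.20 without the array. Median centring of the 9 arrays gave larger values with Qmimic, 0.30 for TJP1, 0.28 for CLDN7 and 1.50 for PLEKHA7.

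**Figure D4:**
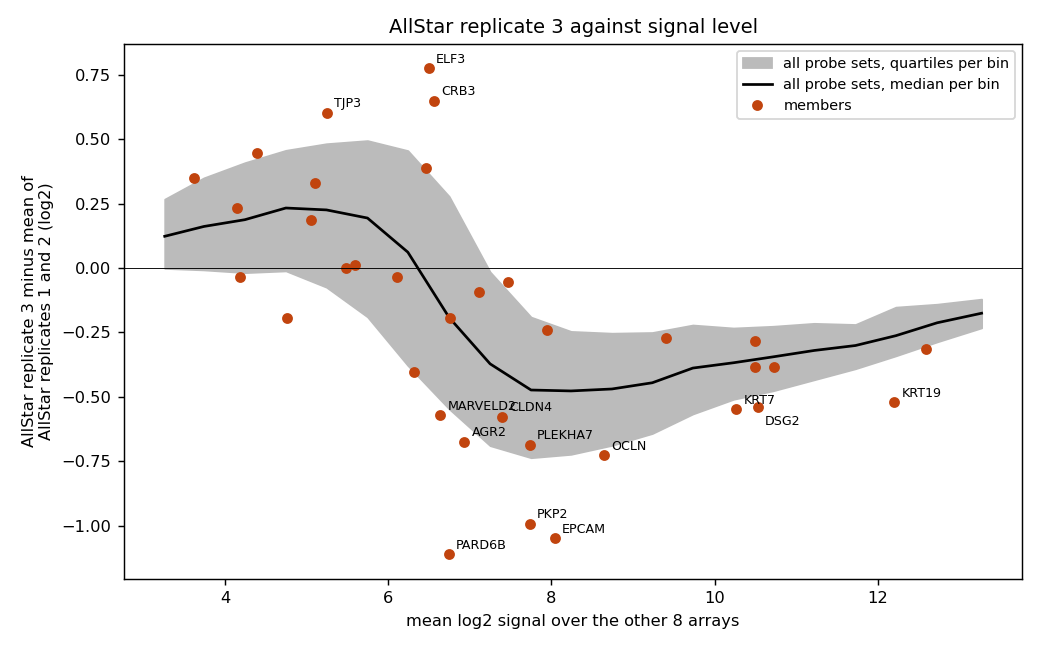
AllStar replicate 3 minus the mean of AllStar replicates 1 and 2 (log2, vertical) against the mean log2 signal over the other 8 arrays (horizontal), with all probe sets as a median line and quartile band per bin and the 35 genes as points. Members above a level of 10 lie between -0.55 and -0.28. PARD6B, EPCAM and PKP2 lie farthest below the band, and KRT7, KRT19 and AGR2 are among the others below it.

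Other genes of the same pathways, listed apart from the members, were read in the same fits. Of 11 repressors of epithelial genes 0 passed in any comparison, with 1 at an unadjusted limma p under 0.05 with Qmimic and 2 with Dmimic over 9 arrays (against 16.3% and 12.8% of all probe sets), and 0 and 2 over 8 (18.2% and 17.1%). ZEB1 was 9.90, 10.10 and 9.97 with Qmimic, 9.93, 9.82 and 9.72 with Dmimic and 9.96, 9.96 and 9.60 with AllStar. SNAI2, which encodes SLUG, was 9.004, 9.012 and 8.998 with Qmimic, 9.26, 9.23 and 9.39 with Dmimic and 9.03, 8.98 and 8.25 with AllStar, and its Dmimic change over 8 arrays was 0.29 (adjusted p = 0.0607). ZEB1 therefore overlapped between the groups, while the Dmimic arrays of SNAI2 lay above all others. SNAI1, ZEB2 and TWIST1 had differences of -0.09 to 0.30 from AllStar with either mimic over 8 arrays, at an adjusted p of 0.333 to 0.984.

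Of 14 further adherens junction genes, 21 further tight junction genes, 14 further desmosome and hemidesmosome genes, 12 further keratins and 10 further polarity genes, 0 passed both thresholds in any of the 4 comparisons with 9 or 8 arrays. In the 8-array fit for both mimics, 7, 6, 4, 3 and 4 of these had an unadjusted limma p under 0.05, where 19.1% of all probe sets had one. Those with the smallest limma adjusted p there were VCL (-0.39, adjusted p = 0.053) and SHROOM3 (0.47, adjusted p = 0.0585), both linked to actin at the junction, and, under 1.5-fold, PKP4 of the armadillo family (-0.39, adjusted p = 0.0378), TRIP6 (0.28, adjusted p = 0.0405) and CLDN12, a claudin (0.27, adjusted p = 0.0429). Of 19 mesenchymal genes 0 passed both thresholds, with 8 at an unadjusted p under 0.05 over 9 arrays for both mimics and 6 over 8 arrays, against 19.2% and 19.1% of all probe sets. FBN1, which encodes fibrillin-1, had a value of 0.47 for both mimics over 8 arrays (limma adjusted p = 0.0153, under 1.5-fold). For VIM the 95% interval over 8 arrays was -0.13 to 0.13 with Qmimic and -0.12 to 0.15 with Dmimic, and FN1 (fibronectin) lay at 11.28 to 11.73 and CDH2 (N-cadherin) at 5.35 to 6.15 over the 9 arrays.

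AXL, which the title names, lay at 11.54 to 11.85 with Qmimic, 11.55 to 11.83 with Dmimic and 12.27 to 12.76 with AllStar. Every mimic array was thus below every AllStar array. Over 8 arrays its values were -0.55 with Qmimic and -0.57 with Dmimic (limma adjusted p = 0.0394 and adjusted p = 0.0317), under 1.5-fold. AllStar replicate 3 was its highest array, so the differences were larger over 9 arrays, where no limma adjusted p was under 0.05. Markers of other cell types, 5 of leukocytes, 7 of fibroblasts and 5 of endothelium, gave 0 calls in any limma fit. At most 1, 3 and 2 of them had an unadjusted p under 0.05 in a comparison. These counts were reached with Qmimic over 9 arrays, where 16.3% of all probe sets had one, a smaller share than 3 of 7 or 2 of 5. Their mean signals per array were 5.5 to 5.63 with Qmimic, 5.56 to 5.61 with Dmimic and 5.42 to 5.74 with AllStar for leukocytes, 5.09 to 5.20, 5.12 to 5.23 and 5.14 to 5.38 in the same groups for fibroblasts, and 5.19 to 5.22, 5.17 to 5.25 and 5.15 to 5.37 for endothelium. The single markers were not alike: PTPRC, the pan-leukocyte marker, lay at 3.73 to 4.46 and CDH5, the endothelial cadherin, at 3.19 to 3.58, near or below the lower quartile of the arrays, while HLA-DRA of antigen presentation lay at 8.38 to 8.88. KDR, a VEGF receptor, lay at 6.16 to 6.31 with Qmimic, 6.22 to 6.49 with Dmimic and 5.47 to 5.96 with AllStar, with no overlap between mimics and AllStar. Its values over 8 arrays were 0.37 with Qmimic (limma adjusted p = 0.0761) and 0.46 with Dmimic (adjusted p = 0.0388, under 1.5-fold). CD14, of monocytes, lay at 5.96 to 6.22 with Qmimic, 5.97 to 6.16 with Dmimic and 5.57 to 5.92 with AllStar (limma adjusted p = 0.158 and adjusted p = 0.148 over 8 arrays). The part of such markers in the junction values was not tested. Of 8 luminal markers outside the members 0 passed, with at most 2 at an unadjusted limma p under 0.05, and of 2 basal markers 0 passed, with at most 1. Both counts were reached with Dmimic over 8 arrays, where 17.1% of all probe sets had one. XBP1, a factor of secretory cells, had a value of -0.55 with Dmimic over 8 arrays (adjusted p = 0.0192, under 1.5-fold) and -0.18 with Qmimic (adjusted p = 0.299). ESR1, the oestrogen receptor, lay at 6.74 to 7.45, PGR, the progesterone receptor, at 3.64 to 4.72 and ERBB2 at 8.11 to 8.78, with AllStar replicate 3 the highest array of ESR1 and PGR and the lowest of ERBB2.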

How the data were processed

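Gene expression was measured on 9 Affymetrix HG-U133 Plus 2.0 arrays, 3 per group. The deposited log2 values per probe set were made by the authors with RMA, per the series text, which names AFFYGUI and limma, and per the submitters' processing notes. Their versions are not given in the sources used here. Array medians were 5.44 to 5.60, and arrays give no depth.

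The 62 control probe sets were left out and the other 54613 tested with no filter. In the annotation 41091 of these carry a single gene symbol, 1801 carry several and 11721 carry no symbol; the current gene table changed 0 symbols. In limma 3.58.1 under R 4.3.3, lmFit and eBayes (no trend) were fitted to the 3 groups over 9 arrays and again without AllStar replicate 3, with Benjamini-Hochberg adjustment over all probe sets and a fold threshold of 1.5. The fit was tested on simulated data. With 2 AllStar arrays the spread is shared over the groups.

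All members may be named; values per array are given for members called, for those changed at least 1.5-fold against AllStar in a fit, and for the 12 with the highest mean. From 13 further lists (170 symbols, 154 measured), written from general knowledge, called genes, up to 4 with the smallest adjusted p and a fixed set of markers could be named. The members and lists were chosen with earlier results of these data known.

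Alternatives were leaving out each array, a replicate block, repeated quantile normalisation, cyclic loess, median centring, a log2 change of at least 1.5, adjusted p alone, the upper part of the probe sets by mean, and the mean of a gene's probe sets.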

Additional observations from a re-analysis of the deposited data

Results flagged for a closer look

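Qmimic and Dmimic differed from each other in AGR2 by a test of the difference itself: Qmimic minus Dmimic was 0.76 on the log2 scale (limma adjusted p = 0.0359 over the 8 arrays without AllStar replicate 3, adjusted p = 1 over all 9), with all 3 Qmimic arrays above all 3 Dmimic arrays. As given above, the call between the mimics also depended on single further arrays. The arrays of a dimmer second AGR2 probe set overlapped between the mimics. The mean of both probe sets gave a difference of 0.40 over 8 arrays (limma adjusted p = 0.11). No group has 4 or more arrays, so single arrays were not tested as outliers.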

How the results depend on the processing

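Counts of members passing both thresholds over 9 arrays were 0 in each comparison. Leaving out 1 array gave 0 to 1 for Qmimic against AllStar, 0 to 2 for Dmimic, 0 to 1 for both mimics and 0 to 1 for Qmimic against Dmimic, and only AllStar replicate 3 gave counts above 0 when left out. Cyclic loess gave 1 for Qmimic, 1 for Dmimic and 1 for both, and repeated quantile normalisation, the upper part of the probe sets and the mean of a gene's probe sets gave 1 each for both mimics, in each case PLEKHA7. Over 8 arrays the counts were 1, 2, 1 and 1 in the same order. Leaving out 1 further array gave 0 to 2, 0 to 2, 0 to 1 and 0 to 1. Every count was 0 without AllStar replicate 1 or 2. The replicate block gave 0 for Qmimic, 0 for Dmimic and 0 for both, and kept 1, AGR2, between the mimics. A log2 change of at least 1.5 gave 0 in all 4 comparisons, and median centring gave 2 for Qmimic (with PARD6B). Adjusted p alone gave 3 for Qmimic (with PARD6B and DSC2) and 2 for both, and the mean of a gene's probe sets gave 1 for Dmimic and 0 between the mimics. The causes were not tested. Over single members and alternatives 4507 values kept their side of the threshold and direction of any call, 16 newly passed, 29 no longer passed, and 0 called values turned sign. The replicate numbers did not pair the arrays: among the 9 pairs of arrays with one number, the correlation of deviations from group means exceeded 0.1 in 3 (range -0.275 to 0.219), and 3 arrays correlated best with their own number. With 3 arrays a group, dim genes such as CDH1 allow no statement on small changes.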

Other observations

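Among 28 further epithelial genes, ERBB3, TFAP2C and MAL2 passed both thresholds in a fit without AllStar replicate 3. With Qmimic ERBB3 passed, where 0.540% of all probe sets did, and with Dmimic ERBB3, TFAP2C and MAL2 (0.864%). For both mimics together ERBB3 and TFAP2C passed (0.721%), and over 9 arrays ERBB3 alone (0.0806%). These comparisons share arrays, so none is a separate test of another. ERBB3, a receptor of the EGF receptor family that signals with ERBB2, was 7.14, 7.21 and 6.80 with Qmimic, 6.96, 6.68 and 7.13 with Dmimic and 6.14, 6.21 and 6.08 with AllStar. Every mimic array lay above every AllStar array, and AllStar replicate 3 was close to the other controls. ERBB3 rose 1.83-fold with Qmimic (log2 change 0.87, limma adjusted p = 0.0202) and 1.68-fold with Dmimic (0.75, adjusted p = 0.0308) over 8 arrays, and over both mimics it passed with all 9 arrays as well (0.84, adjusted p = 0.0431).

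TFAP2C, which encodes the AP-2 gamma factor of mammary epithelium, was 8.76, 8.80 and 8.68 with Qmimic, 8.81, 8.80 and 9.12 with Dmimic and 8.25, 8.24 and 8.22 with AllStar, again without overlap between mimics and control. It rose 1.59-fold with Dmimic over 8 arrays (limma adjusted p = 0.0149), and with Qmimic its change was 0.50 (adjusted p = 0.036, under 1.5-fold). MAL2, a protein of apical transport, was 4.57, 4.50 and 4.53 with Qmimic, 4.30, 4.08 and 4.03 with Dmimic and 4.87, 4.62 and 4.08 with AllStar. It fell 1.52-fold with Dmimic over 8 arrays (limma adjusted p = 0.02) at a level near the lower quartile of the arrays, and over 9 arrays its change was -0.39 (adjusted p = 0.385). EHF, an ETS factor of epithelia, had changes of 0.41 with Qmimic and 0.44 with Dmimic over 8 arrays (adjusted p = 0.0363 and adjusted p = 0.0265, under 1.5-fold).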
